A study of Homo sapiens with 48 samples.

Results

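The 32 genes described here encode enzymes of cholesterol and fatty acid synthesis and the proteins that govern the sterol regulatory element-binding proteins (SREBPs). They were taken as a named gene module, listed by gene symbol, from the 25066 genes of a deposited table of raw counts. All 32 were found in it (MSMO1 and SC5D stand there under their older symbols, SC4MOL and SC5DL), and all 32 were among the 13881 genes with enough reads to be tested. By role, 5 are SREBP regulators or sterol carriers, 7 act in the mevalonate and isoprenoid steps, 11 in the squalene and sterol steps, and 9 in acetyl-CoA supply and fatty acid synthesis.

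The counts came from RNA sequencing of TMD8 and HBL1, a pair of established human diffuse large B cell lymphoma (DLBCL) lines of the activated B cell-like type. Every group, DMSO included, was made of cells engineered to carry Cas9 and grown in advanced RPMI with FBS. Each line was given NGI-1 at 5 µM (an inhibitor of oligosaccharyltransferase, the enzyme complex that attaches N-glycans to proteins), acalabrutinib at 50 nM (an inhibitor of Bruton's tyrosine kinase, BTK), copanlisib at 20 nM (an inhibitor of phosphoinositide 3-kinase, PI3K) or DMSO as vehicle. Cells were collected at 3, 6 and 24 h, which gave 24 groups of 2 libraries each, 48 in all. The labels do not say whether the duplicates came from separate cultures, and the p-values therefore reflect no more than how far these libraries spread, which may be technical.

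As background, SREBPs are transcription factors made as membrane proteins of the endoplasmic reticulum. When membrane sterol is low, SCAP escorts them to the Golgi apparatus, where proteases release the active part, which binds promoters of genes for sterol and fatty acid synthesis, often beside the factors NF-Y and Sp1. When sterol is plentiful, INSIG proteins hold SCAP in the endoplasmic reticulum. In many cell types signalling through PI3K and AKT raises SREBP activity, and SCAP carries N-glycans.

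Promoter sequences are shown for 5 members whose changes carry the results below: INSIG1, which fell early, SREBF2, the gene of SREBP-2 itself, NSDHL and DHCR7, which fell with the kinase inhibitors, and AACS, which rose in TMD8. They were taken from RefSeq annotation of GRCh38.p14, which is not the hg19 build used for the counts, and run from 250 bases before to 50 bases after each gene's start, 5′ to 3′ on the gene's strand. Capitals mark matches, on either strand, to the sterol regulatory element core TCACNCCAC, to the E-box TCACGTGA, which SREBPs also bind, to the NF-Y box CCAAT or to the Sp1 box GGGCGG.
INSIG1 (chr7:155297628-155297927, plus strand): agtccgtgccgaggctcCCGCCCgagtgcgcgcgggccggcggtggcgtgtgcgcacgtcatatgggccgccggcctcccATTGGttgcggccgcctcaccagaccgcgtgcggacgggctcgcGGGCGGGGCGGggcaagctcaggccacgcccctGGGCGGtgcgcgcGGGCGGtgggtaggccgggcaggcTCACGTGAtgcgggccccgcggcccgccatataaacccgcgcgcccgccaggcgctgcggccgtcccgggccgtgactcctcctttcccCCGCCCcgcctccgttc
SREBF2 (chr22:41832855-41833154, plus strand): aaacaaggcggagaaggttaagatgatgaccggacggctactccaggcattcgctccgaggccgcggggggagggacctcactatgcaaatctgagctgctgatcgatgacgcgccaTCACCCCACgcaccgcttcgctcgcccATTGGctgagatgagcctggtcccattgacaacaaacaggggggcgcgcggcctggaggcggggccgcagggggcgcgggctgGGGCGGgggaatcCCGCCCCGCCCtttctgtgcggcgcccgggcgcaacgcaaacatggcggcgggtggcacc
NSDHL (chrX:152830813-152831112, plus strand): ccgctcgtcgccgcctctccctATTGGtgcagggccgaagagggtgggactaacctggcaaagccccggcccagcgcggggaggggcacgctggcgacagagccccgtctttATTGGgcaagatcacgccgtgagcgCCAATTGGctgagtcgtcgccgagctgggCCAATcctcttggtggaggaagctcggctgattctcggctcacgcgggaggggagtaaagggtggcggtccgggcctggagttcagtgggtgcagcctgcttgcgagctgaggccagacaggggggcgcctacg
DHCR7 (chr11:71448344-71448643, minus strand): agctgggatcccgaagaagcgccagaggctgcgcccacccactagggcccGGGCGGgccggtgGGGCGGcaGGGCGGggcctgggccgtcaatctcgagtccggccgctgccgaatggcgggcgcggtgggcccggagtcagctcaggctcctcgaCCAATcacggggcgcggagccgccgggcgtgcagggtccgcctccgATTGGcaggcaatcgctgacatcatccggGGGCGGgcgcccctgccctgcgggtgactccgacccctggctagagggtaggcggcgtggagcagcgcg
AACS (chr12:125065185-125065484, plus strand): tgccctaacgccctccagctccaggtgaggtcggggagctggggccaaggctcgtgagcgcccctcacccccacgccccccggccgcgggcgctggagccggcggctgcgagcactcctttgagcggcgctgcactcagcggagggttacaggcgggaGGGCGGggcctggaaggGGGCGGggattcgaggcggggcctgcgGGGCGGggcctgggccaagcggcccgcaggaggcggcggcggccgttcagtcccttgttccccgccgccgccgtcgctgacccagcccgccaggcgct

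Of the 32 members, 28 had an entry in the promoter table, and ACAT2, FDFT1, SQLE and FASN are named only. The NF-Y box was present in 18 of the 28 promoters (64.3%), against 34.6% of all 35116 promoters of the same length. At least 2 NF-Y boxes lay in 12 of the 28 (42.9%), against 10.8% of all promoters. The Sp1 box was present in 26 of 28 (92.9%), against 45% of all promoters. The set of all promoters was not filtered by gene type or expression, whereas the members all had enough reads to be tested. The shares therefore do not compare matched sets. The exact sterol regulatory element core was found in SREBF2 alone (3.57% of the members' promoters, against 1.13% of all), and the E-box in INSIG1 alone (3.57%, against 0.98%). These matches describe letters in the windows and are not evidence of binding, and AACS held Sp1 boxes with no NF-Y box.

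The libraries held 7165377 to 11999050 counted reads, of which the 32 members took 0.521% to 0.891%. Replicate libraries differed by more than sampling noise, and the coefficient of variation between libraries of a group was 7.34% at the common dispersion. All 8 B cell marker genes were tested, and their summed level was 3120 to 6050 CPM (counts scaled to library size) in the 48 libraries. Summed T and NK cell markers reached at most 6.67 CPM, myeloid markers 4.14 CPM and stromal, epithelial or endothelial markers 16.4 CPM. Bulk counts cannot tell fewer cells of a kind from less RNA per cell. Of the 32 members, 20 overlap another annotated gene and 6 have named pseudogenes, and whether the counting used strand is not stated, so reads could be shared there. CPM values below are TMM-scaled and not divided by gene length, so that they compare libraries and not genes.

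At 24 h, BTK and PI3K inhibition lowered a large share of the 32 genes in both lines, whereas with NGI-1 the genes called higher and lower were more evenly split. Copanlisib lowered 16 of 32 members in TMD8 (50%, against 16% of all genes tested) and 17 in HBL1 (53.1%, against 17.7%). Acalabrutinib lowered 12 in TMD8 (37.5%, against 15.5%) and 10 in HBL1 (31.2%, against 11.4%). NGI-1 lowered 6 in TMD8 (18.8%, against 14.8%) and 2 in HBL1 (6.25%, against 11.4%), which is near or under the background. Single libraries moved these counts: without DMSO replicate 1 of the line, copanlisib lowered 10 members in TMD8 and 9 in HBL1, and acalabrutinib 4 in HBL1. Without replicate 2 of the compound, copanlisib lowered 9 in TMD8 and 11 in HBL1, and acalabrutinib 6 in HBL1. NGI-1 lowered 1 in HBL1 without DMSO replicate 1 or its own replicate 2, and 3 or 4 without its replicate 1 or DMSO replicate 2. The lowered calls that held without any 1 library were 8 of 16 and 9 of 17 for copanlisib, 7 of 12 and 4 of 10 for acalabrutinib, and 3 of 6 and 1 of 2 for NGI-1, TMD8 before HBL1. A left-out fit keeps 1 library in that group, which lessens power for every gene, member or not. The shares of all genes come from the fit of all 48 libraries. No such share is given for the left-out fits, here or below. FASN was lower and TM7SF2 higher in all 6 comparisons at 24 h. A member was called when edgeR's quasi-likelihood test gave an adjusted p under 0.05, with Benjamini-Hochberg adjustment over all 13881 genes. Within a line and time the 3 compounds were compared with the same 2 DMSO libraries, so their results are not independent of each other.

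Members called higher numbered 4 with NGI-1, 3 with acalabrutinib and 3 with copanlisib in TMD8, where 15.6%, 15.3% and 15.6% of all genes were called higher, and 4, 1 and 2 in HBL1, where the shares of all genes were 7.87%, 7.53% and 12.5%. In HBL1, DMSO replicate 1 left out gave 2, 0 and 0 called higher, replicate 2 of acalabrutinib or copanlisib left out gave 0, and copanlisib had 1 without either of its other libraries. The median log2 fold change of the 32 members at 24 h was -0.06 with NGI-1, -0.17 with acalabrutinib and -0.31 with copanlisib in TMD8, and -0.04, -0.22 and -0.31 in HBL1. Over all genes tested the median lay between -0.02 and 0.01 in these 6 comparisons.

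**Figure D1:**
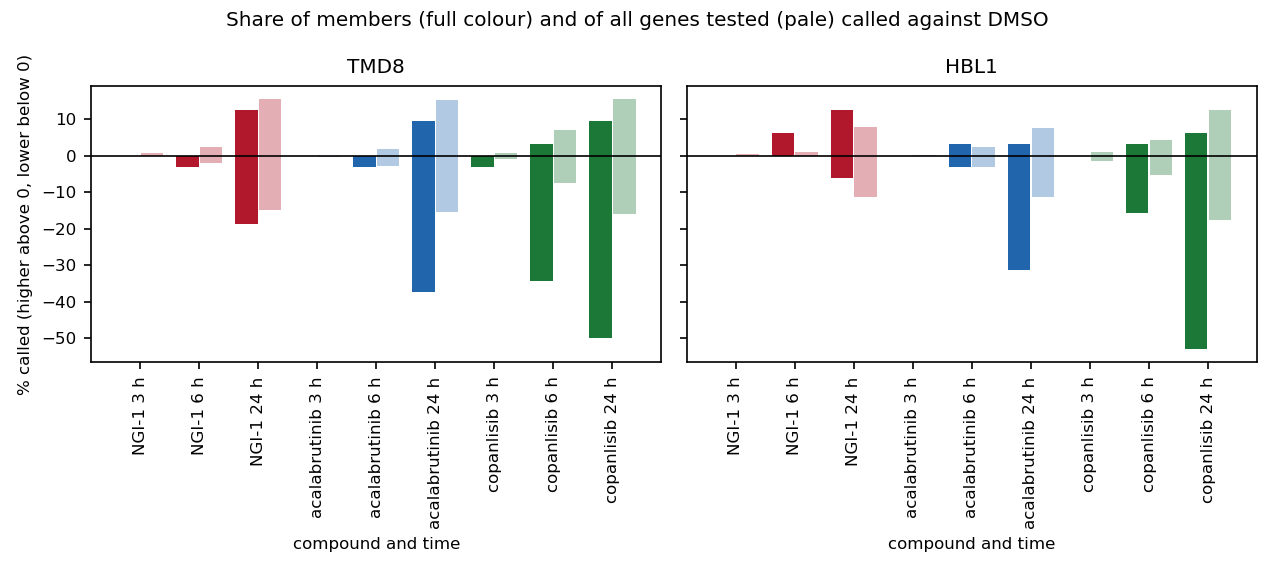
Share of the 32 members and of all 13881 genes tested that were called higher or lower against DMSO (percent, y axis, higher above 0 and lower below 0), for each compound, line and time, with members in full colour and all genes pale. The members' lowered share with copanlisib at 24 h, 50% in TMD8 and 53.1% in HBL1, stands above that of all genes, 16% and 17.7%.

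At 6 h the lowering was mostly seen with copanlisib. It lowered 11 members and raised 1 in TMD8, where 7.42% of all genes were lowered and 6.98% raised, and lowered 5 and raised 1 in HBL1, where the shares were 5.34% and 4.2%. The lowered count in TMD8 was 4 without DMSO replicate 1, 6 without DMSO replicate 2, 5 without copanlisib replicate 1 and 2 without copanlisib replicate 2, and 2 of the 11 calls held in all 4 of these fits. In HBL1 it was 0 without DMSO replicate 2 and 1 without copanlisib replicate 1, and none of the 5 held in all 4. Acalabrutinib lowered 1 member in TMD8 (all genes 2.8% lower, 1.7% higher), and lowered 1 and raised 1 in HBL1 (3.16% lower, 2.46% higher). NGI-1 lowered 1 member in TMD8 (1.99% lower, 2.26% higher) and raised 2 in HBL1 (1.08% higher, 0.072% lower). The median of the 32 at 6 h was 0.03 with NGI-1, -0.04 with acalabrutinib and -0.18 with copanlisib in TMD8, and 0.14, 0.02 and -0.08 in HBL1. With NGI-1, 17 of the 32 values were above 0 in TMD8 and 26 in HBL1, against 6781 and 6912 of all 13881 genes. At an unadjusted p under 0.05 (edgeR, either direction), NGI-1 had 6 members in TMD8 (18.8%), against 2171 of the 13881 genes. By the same rule it had 12 members in HBL1 (37.5%), against 1326 of the 13881 genes.

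At 3 h the only call was FASN, lowered by copanlisib in TMD8, where 1.06% of all genes were lowered and 0.656% raised. The other 5 comparisons called no member by edgeR's quasi-likelihood test or by DESeq2. All genes called there by the adjusted p were 0.569% higher and 0.166% lower for NGI-1 and 0% and 0.339% for acalabrutinib in TMD8, and 0.353% and 0%, 0.0288% and 0.195%, and 0.85% and 1.37% for NGI-1, acalabrutinib and copanlisib in HBL1. At an unadjusted p under 0.05, in either direction, TMD8 had 2 members for NGI-1 (6.25%, against 7.51% of all genes) and 2 for acalabrutinib (6.25%, against 4.98%). HBL1 had 4 for NGI-1 (12.5%, against 5.36%), 0 for acalabrutinib (against 5.22%) and 5 for copanlisib (15.6%, against 11.8%). Calls were also followed with single libraries left out, where 1 library stays in a group and power falls for every gene. No rate of lost calls over all genes is given, so whether the losses are particular to the members is not known. Of 105 calls against DMSO over the 18 comparisons, 46 stayed when each library of the comparison was left out in turn and 59 were lost in at least 1 such fit.

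**Figure D2:**
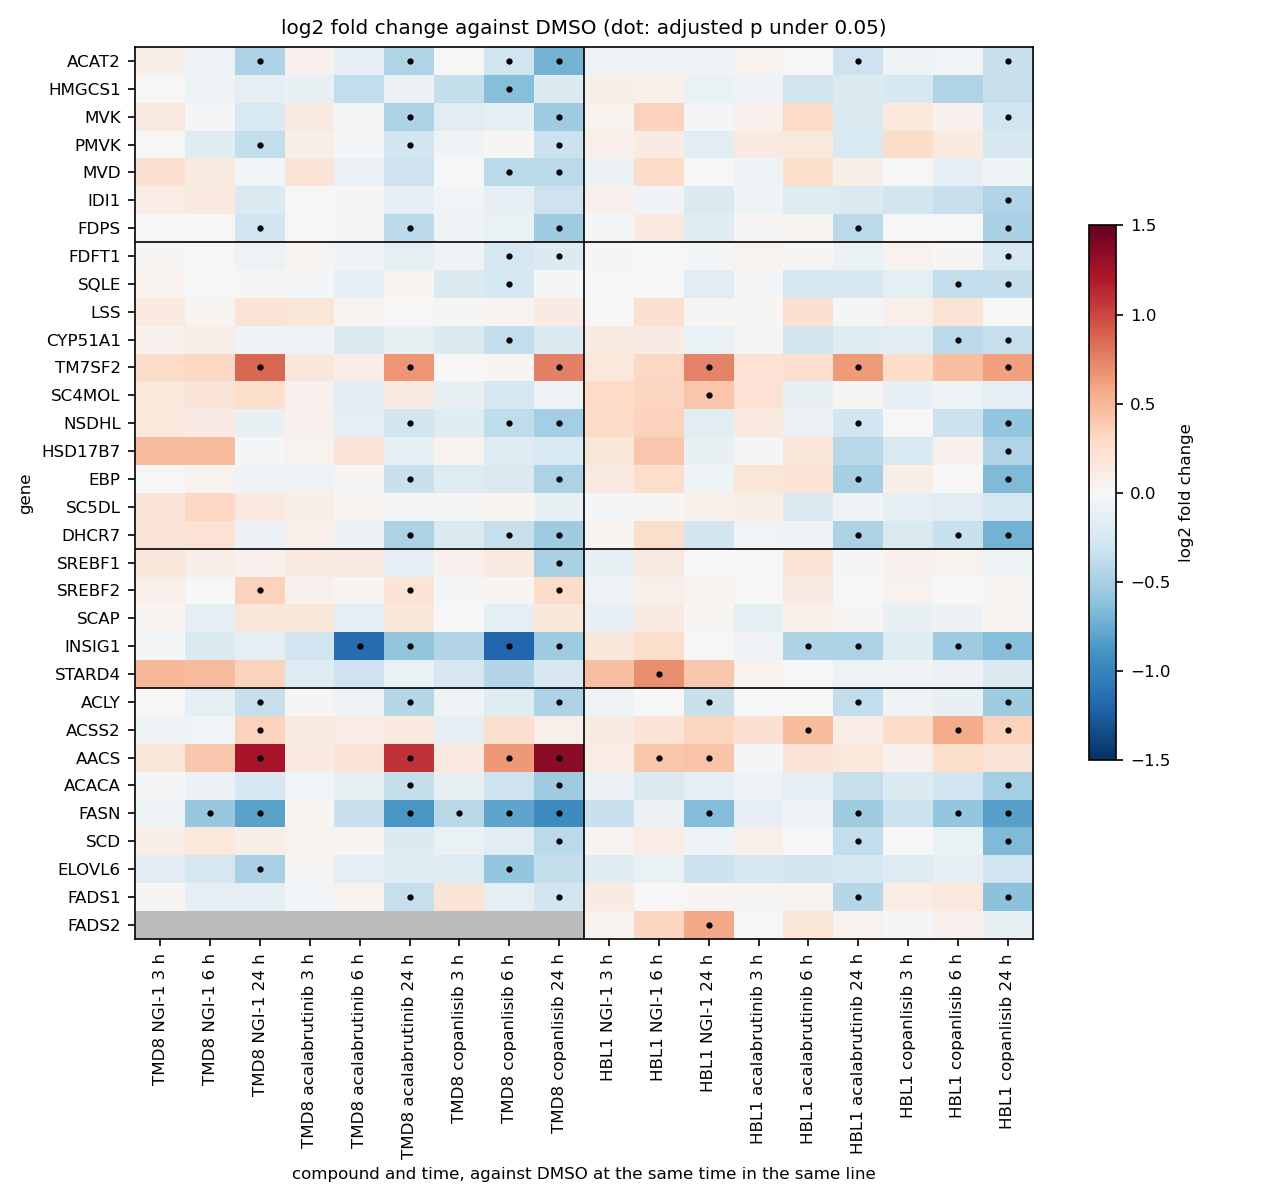
Log2 fold change against DMSO (colour) of the 32 members in rows, grouped by role, and of the 18 comparisons in columns, with a dot where the adjusted p was under 0.05. Copanlisib at 24 h holds most dots on the lowered side in both lines, and TM7SF2 is raised at 24 h in all 6 columns; FADS2 in TMD8 is grey because it had too few reads.

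INSIG1, which holds SCAP in the endoplasmic reticulum and is itself transcribed by SREBPs, was the earliest and most lowered regulator. At 6 h in TMD8 its level was 334 and 348 CPM with NGI-1, 189 and 165 CPM with acalabrutinib, 184 and 160 CPM with copanlisib, and 408 and 374 CPM with DMSO. The acalabrutinib and copanlisib libraries lay far below both DMSO libraries, and the NGI-1 libraries closer under them. The log2 fold change was -1.14 ± 0.13 (SE, adjusted p = 6.8e-08, edgeR) with acalabrutinib and -1.19 ± 0.13 (adjusted p = 1.6e-08) with copanlisib, and both calls stayed without any 1 of their libraries. With NGI-1 it was -0.20 ± 0.12, which was not called (adjusted p = 0.48).

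In HBL1 at 6 h, INSIG1 stood at 274 and 331 CPM with NGI-1, 163 and 204 CPM with acalabrutinib, 168 and 183 CPM with copanlisib, and 241 and 265 CPM with DMSO. Here the NGI-1 libraries were above both DMSO libraries and those of the kinase inhibitors below. The log2 change was -0.46 ± 0.13 with acalabrutinib (adjusted p = 0.025) and -0.53 ± 0.13 with copanlisib (adjusted p = 0.0047), while the NGI-1 value of 0.26 ± 0.12 was not called. The acalabrutinib call was lost without DMSO replicate 1 (adjusted p = 0.08), DMSO replicate 2 (0.17) or acalabrutinib replicate 1 (0.34), and the copanlisib call without DMSO replicate 2 (0.065) or copanlisib replicate 1 (0.078).

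At 24 h INSIG1 was still lower with the kinase inhibitors. TMD8 libraries had 269 and 243 CPM with NGI-1, 196 and 177 CPM with acalabrutinib, 217 and 173 CPM with copanlisib, and 310 and 254 CPM with DMSO. HBL1 libraries had 368 and 303 CPM with NGI-1, 243 and 236 CPM with acalabrutinib, 227 and 201 CPM with copanlisib, and 342 and 327 CPM with DMSO. In both lines the NGI-1 libraries overlapped those of DMSO. The log2 change in TMD8 was -0.59 ± 0.13 with acalabrutinib (adjusted p = 0.00037) and -0.53 ± 0.13 with copanlisib (adjusted p = 0.0012), and in HBL1 -0.48 ± 0.12 (adjusted p = 0.0054) and -0.64 ± 0.12 (adjusted p = 0.00014). The TMD8 copanlisib call was lost without DMSO replicate 1 (adjusted p = 0.06) or copanlisib replicate 2 (0.073), and the HBL1 acalabrutinib call without DMSO replicate 1 (0.066) or acalabrutinib replicate 2 (0.054).

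**Figure D3:**
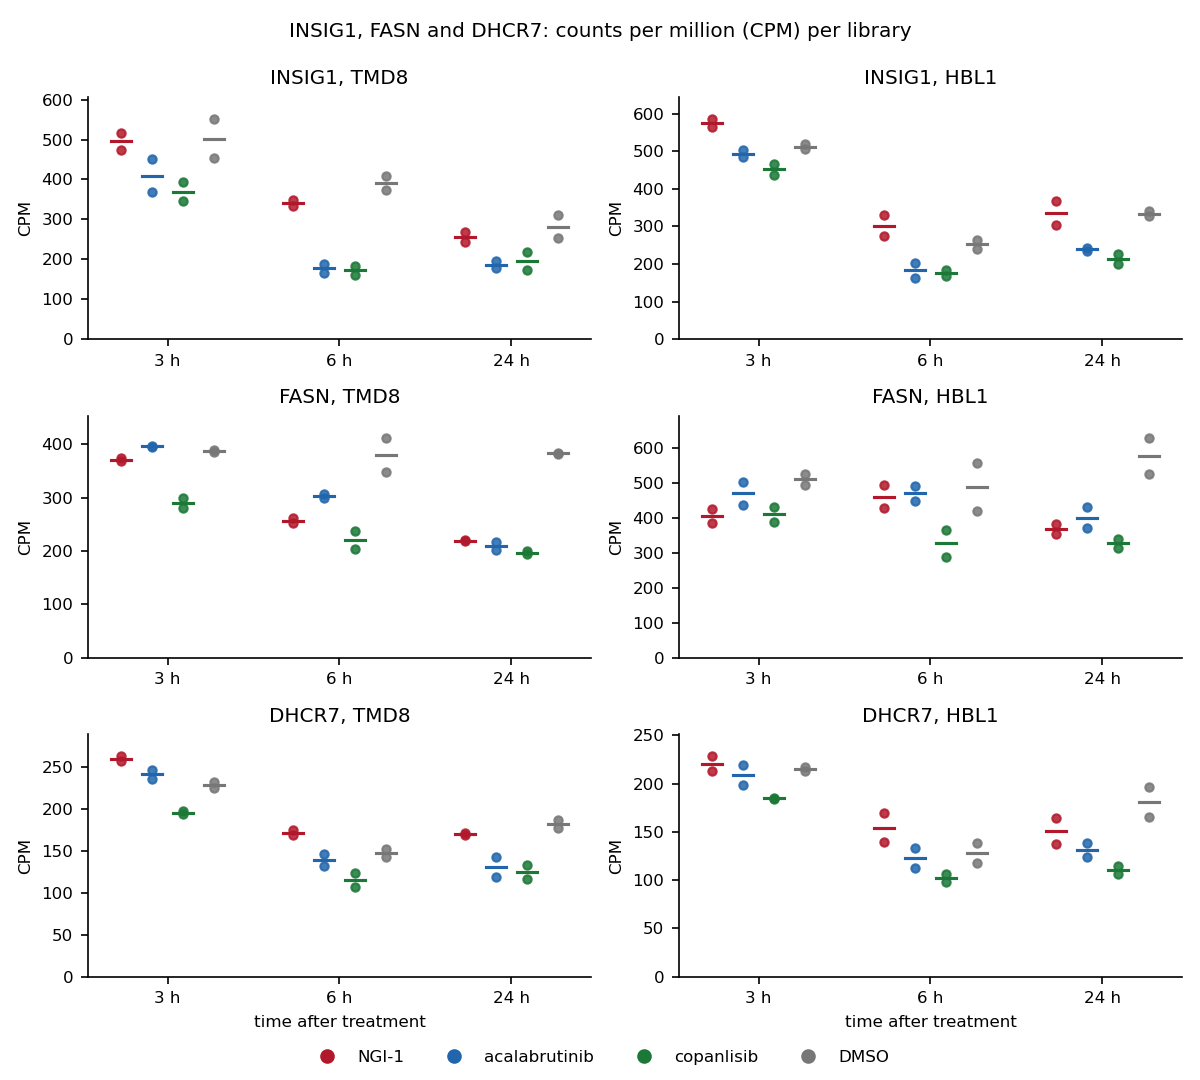
CPM (y axis, from 0) of INSIG1, FASN and DHCR7 in each library of TMD8 and HBL1 by time and compound; each point is a library and each bar the mean of its group. INSIG1 at 6 h in TMD8 lies at 160 to 189 CPM with acalabrutinib and copanlisib, under the DMSO libraries at 374 and 408 CPM.

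SREBF2, which encodes SREBP-2, the main activator of sterol synthesis, moved the other way in TMD8. At 24 h it stood at 457 and 432 CPM with NGI-1, 422 and 388 CPM with acalabrutinib, 418 and 423 CPM with copanlisib, and 350 and 349 CPM with DMSO. All 6 treated libraries were above both DMSO libraries. It rose by a log2 change of 0.35 ± 0.07 with NGI-1 (adjusted p = 0.00016), 0.21 ± 0.07 with acalabrutinib (adjusted p = 0.019) and 0.27 ± 0.07 with copanlisib (adjusted p = 0.0032). The acalabrutinib call was lost without DMSO replicate 1 (adjusted p = 0.081), DMSO replicate 2 (0.097) or acalabrutinib replicate 1 (0.21). In HBL1 at 24 h it had 389 and 365 CPM with NGI-1, 384 and 342 CPM with acalabrutinib, 382 and 363 CPM with copanlisib, and 378 and 354 CPM with DMSO, with log2 values between -0.01 and 0.04 and no call.

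SREBF1, which encodes SREBP-1, the form most tied to fatty acid synthesis, was lowered in 1 of 18 comparisons. At 24 h in TMD8 it had 70.3 and 59.9 CPM with NGI-1, 62.4 and 51.4 CPM with acalabrutinib, 48.9 and 39 CPM with copanlisib, and 62.2 and 61.7 CPM with DMSO. Only the copanlisib libraries stood apart, with a log2 change of -0.49 ± 0.11 (adjusted p = 0.00045), a call lost without copanlisib replicate 2 (adjusted p = 0.053). In HBL1 at 24 h it had 165 and 140 CPM with NGI-1, 157 and 142 CPM with acalabrutinib, 153 and 137 CPM with copanlisib, and 164 and 141 CPM with DMSO, and the groups overlapped. SCAP was called in none of the 18 comparisons. Its 24 h levels in TMD8 were 70.9 and 71.1 CPM with NGI-1, 71.5 and 69.1 CPM with acalabrutinib, 70.7 and 69.5 CPM with copanlisib, and 59.4 and 65.5 CPM with DMSO. The 3 log2 values for SCAP there were 0.17 to 0.18, with adjusted p from 0.085 to 0.13.

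STARD4, a soluble protein that moves sterol between membranes, had its higher values with NGI-1. In HBL1 at 6 h it had 76.5 and 104 CPM with NGI-1, 45.9 and 64.3 CPM with acalabrutinib, 43.9 and 60.5 CPM with copanlisib, and 49.1 and 61.9 CPM with DMSO. The NGI-1 libraries were above both DMSO libraries there, at a log2 change of 0.70 ± 0.16 (adjusted p = 0.015). This was its only call, and it did not hold without DMSO replicate 1 (adjusted p = 0.45) or the second NGI-1 library (0.6). Both NGI-1 libraries also lay above both DMSO libraries at the other times and in TMD8, with log2 values of 0.35 to 0.50 that were not called (adjusted p from 0.067 to 0.43). At 3 h in TMD8, for example, STARD4 had 139 and 134 CPM with NGI-1, against 99.9 and 92.8 CPM with DMSO.

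Of the 7 mevalonate and isoprenoid genes, none was called higher against DMSO at any time. At 24 h in TMD8, 3 were lower with NGI-1, 4 with acalabrutinib and 5 with copanlisib, and in HBL1 0, 2 and 4. All genes called lower were 14.8%, 15.5% and 16% in TMD8, and 11.4%, 11.4% and 17.7% in HBL1. Before 24 h the only calls were copanlisib in TMD8 at 6 h, where ACAT2 (-0.30), HMGCS1 (-0.64) and MVD (-0.41) were lower. The ACAT2 call was lost without DMSO replicate 2 (adjusted p = 0.12) or either copanlisib library (0.16 and 0.061), and the MVD call without DMSO replicate 1 (0.26) or copanlisib replicate 2 (0.28). For NGI-1 in HBL1 at 24 h, where edgeR called 0 of the 7, 1 had an unadjusted p under 0.05 (31% of all genes did) and DESeq2 called 0.

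ACAT2, the thiolase that joins 2 acetyl-CoA molecules into acetoacetyl-CoA, had 98.9 and 108 CPM with NGI-1, 105 and 104 CPM with acalabrutinib, 87.3 and 86.9 CPM with copanlisib, and 153 and 133 CPM with DMSO in TMD8 at 24 h. All treated libraries lay below both DMSO libraries. The log2 change was -0.46 ± 0.09 (adjusted p = 7.1e-05), -0.45 ± 0.09 (adjusted p = 9.4e-05) and -0.71 ± 0.09 (adjusted p = 2.8e-08) for the compounds in that order. In HBL1 it fell with acalabrutinib (-0.31 ± 0.09, adjusted p = 0.014) and copanlisib (-0.33 ± 0.09, adjusted p = 0.0055), and both calls were lost without DMSO replicate 1 (adjusted p = 0.19 and 0.11). The acalabrutinib call was also lost without either acalabrutinib library (0.092 and 0.063).

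FDPS, the synthase of farnesyl diphosphate from which sterols and protein prenyl groups are both made, had 330 and 302 CPM with NGI-1, 301 and 286 CPM with acalabrutinib, 278 and 257 CPM with copanlisib, and 402 and 368 CPM with DMSO in TMD8 at 24 h. HBL1 had 284 and 276, 245 and 236, and 224 and 226 CPM with the same compounds, and 327 and 307 CPM with DMSO. The copanlisib libraries were the lowest in both lines. With copanlisib the log2 change was -0.53 ± 0.07 (adjusted p = 9.7e-08) in TMD8 and -0.49 ± 0.07 (adjusted p = 4.9e-07) in HBL1, and with acalabrutinib -0.39 ± 0.07 (adjusted p = 2.2e-05) and -0.40 ± 0.07 (adjusted p = 5.7e-05). NGI-1 lowered FDPS in TMD8 (-0.29 ± 0.07, adjusted p = 0.0015), which did not hold without DMSO replicate 1 (0.062) or without the second NGI-1 library (0.064), and its HBL1 value of -0.18 ± 0.07 was not called. FDPS has 10 named pseudogenes, and reads shared with such copies could have been split or dropped by the counting.

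HMGCS1, which makes HMG-CoA, was lower with copanlisib in TMD8 at 6 h, at 347 and 310 CPM, against 501 and 520 CPM with DMSO. In the same hour it had 461 and 502 CPM with NGI-1 and 418 and 370 CPM with acalabrutinib. The copanlisib change of -0.64 ± 0.19 (adjusted p = 0.022) was lost without any 1 of its 4 libraries (adjusted p from 0.062 to 0.2), and no other comparison called HMGCS1. In HBL1 at 6 h it had 321 and 501 CPM with NGI-1, 261 and 380 CPM with acalabrutinib, 243 and 330 CPM with copanlisib, and 336 and 444 CPM with DMSO, so that replicate 2 was the higher one in each group.

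Mevalonate kinase (MVK) was lower in TMD8 at 24 h with acalabrutinib (-0.46 ± 0.11, adjusted p = 0.00088) and copanlisib (-0.53 ± 0.11, adjusted p = 0.00016), both kept without any 1 library. In HBL1 it was lower with copanlisib (-0.30 ± 0.11), a call lost without DMSO replicate 1 (adjusted p = 0.45) or copanlisib replicate 2 (0.24). PMVK, the next kinase, was called lower with all 3 compounds in TMD8 at 24 h (log2 -0.37, -0.29 and -0.32), and each call was lost when 1 library was left out. Without DMSO replicate 2 the adjusted p was 0.063 with NGI-1, 0.19 with acalabrutinib and 0.14 with copanlisib. The acalabrutinib call was also lost without DMSO replicate 1 (0.077) or acalabrutinib replicate 2 (0.57), and the copanlisib call without DMSO replicate 1 (0.055) or copanlisib replicate 2 (0.14). MVD, the decarboxylase, was lower with copanlisib in TMD8 at 24 h (-0.40 ± 0.12), which was lost without DMSO replicate 2 (adjusted p = 0.26) or either copanlisib library (0.071 and 0.051). IDI1, the isopentenyl diphosphate isomerase, was lower in HBL1 alone, with copanlisib at 24 h (-0.45 ± 0.13), lost without DMSO replicate 1 (adjusted p = 0.054) or copanlisib replicate 2 (0.08).

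Among the 11 squalene and sterol genes, TM7SF2 rose at 24 h. The others fell or were not called, except SC4MOL with NGI-1 in HBL1. At 24 h the counts of genes called lower were 0 with NGI-1, 3 with acalabrutinib and 4 with copanlisib in TMD8, and 0, 3 and 7 in HBL1, where the shares of all genes lowered were 14.8%, 15.5% and 16%, and 11.4%, 11.4% and 17.7%. TM7SF2 was the only one called higher in each comparison, other than NGI-1 in HBL1, where SC4MOL was also higher. At 6 h copanlisib lowered 5 of the 11 in TMD8 (FDFT1, SQLE, CYP51A1, NSDHL and DHCR7, log2 -0.26 to -0.38) and 3 in HBL1 (SQLE, CYP51A1 and DHCR7, -0.33 to -0.39), and all 8 calls were lost when some library was left out. Of these, NSDHL in TMD8 (-0.38 ± 0.10, adjusted p = 0.0058) was lost without copanlisib replicate 2 alone (0.1).

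TM7SF2, a reductase that acts on the sterol ring after lanosterol, had 61.2 and 69.5 CPM with NGI-1, 53.8 and 59.9 CPM with acalabrutinib, 51.7 and 70.3 CPM with copanlisib, and 33.5 and 38.5 CPM with DMSO in TMD8 at 24 h. In HBL1 it had 31.5 and 31.9 CPM with NGI-1, 28.9 and 30.4 CPM with acalabrutinib, 25.1 and 33 CPM with copanlisib, and 16.2 and 22 CPM with DMSO. Every treated library was above both DMSO libraries of its line. The log2 change in TMD8 was 0.86 ± 0.16 (adjusted p = 7.1e-05), 0.66 ± 0.16 (adjusted p = 0.0017) and 0.75 ± 0.16 (adjusted p = 0.00039), all kept without any 1 library. In HBL1 it was 0.74 ± 0.18 (adjusted p = 0.003), 0.64 ± 0.18 (adjusted p = 0.011) and 0.61 ± 0.18 (adjusted p = 0.01), and these calls were lost without DMSO replicate 1 (adjusted p = 0.13, 0.25 and 0.24), for acalabrutinib also without its replicate 2 (0.076) and for copanlisib without its replicate 2 (0.19).

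**Figure D4:**
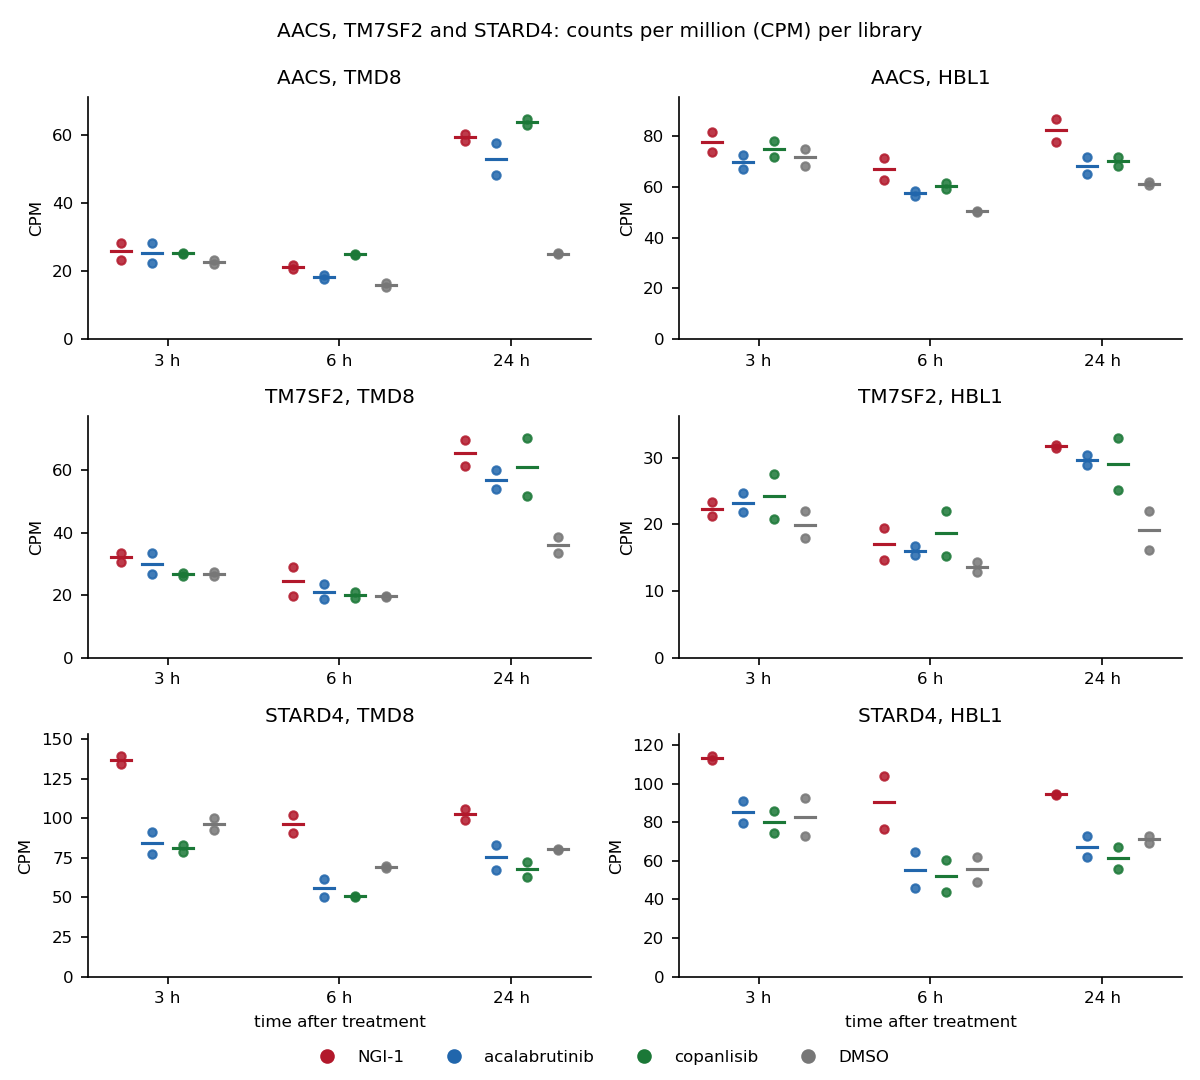
CPM (y axis, from 0) of AACS, TM7SF2 and STARD4 in each library of TMD8 and HBL1 by time and compound; each point is a library and each bar the mean of its group. AACS at 24 h in TMD8 lies at 48.2 to 64.9 CPM with the 3 compounds, above the DMSO libraries at 25 and 25.3 CPM.

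DHCR7, the reductase of the last step to cholesterol, had 172 and 169 CPM with NGI-1, 143 and 119 CPM with acalabrutinib, 133 and 117 CPM with copanlisib, and 187 and 177 CPM with DMSO in TMD8 at 24 h. In HBL1 it had 164 and 137 CPM with NGI-1, 138 and 124 CPM with acalabrutinib, 115 and 106 CPM with copanlisib, and 196 and 165 CPM with DMSO. With copanlisib the log2 change was -0.53 ± 0.10 for TMD8 (adjusted p = 4.9e-05) and -0.71 ± 0.10 for HBL1 (adjusted p = 4.1e-07). With acalabrutinib the log2 change was -0.47 ± 0.10 in both lines (TMD8 adjusted p = 0.00024, HBL1 adjusted p = 0.00064), the HBL1 call being lost without DMSO replicate 1 (0.067). The NGI-1 values, -0.09 ± 0.10 and -0.27 ± 0.10, were not called.

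EBP, a sterol isomerase, showed a like order. In HBL1 at 24 h it had 76.8 and 78.2 CPM with NGI-1, 53.3 and 61.4 CPM with acalabrutinib, 49 and 54 CPM with copanlisib, and 85.2 and 77.3 CPM with DMSO. In TMD8 it had 109 and 99.9, 85.7 and 86.3, and 74.2 and 81.1 CPM with the same compounds, and 111 and 105 CPM with DMSO. NGI-1 libraries overlapped those of DMSO in both lines. The copanlisib change was -0.66 ± 0.10 for HBL1 (adjusted p = 6.7e-07) and -0.48 ± 0.09 for TMD8 (adjusted p = 6.9e-05), and the acalabrutinib change -0.50 ± 0.10 (adjusted p = 0.00014) and -0.33 ± 0.09 (adjusted p = 0.0047), the last lost without DMSO replicate 1 (0.062).

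NSDHL, which removes methyl groups from the sterol ring, had 86.1 and 84.2 CPM with NGI-1, 82.1 and 69.8 CPM with acalabrutinib, 70.5 and 58.4 CPM with copanlisib, and 96.4 and 87.6 CPM with DMSO in TMD8 at 24 h. In HBL1 it had 49 and 44.9, 45.1 and 41.6, and 36.2 and 34.6 CPM, and 54.4 and 51.5 CPM with DMSO. The copanlisib change was -0.51 ± 0.10 for TMD8 (adjusted p = 6.9e-05) and -0.58 ± 0.11 for HBL1 (adjusted p = 3.9e-05), both kept without any 1 library. The acalabrutinib changes, -0.28 and -0.29, were called in both lines and lost without DMSO replicate 1 (adjusted p = 0.23 in TMD8 and 0.27 in HBL1) or acalabrutinib replicate 2 (0.36 and 0.27), in HBL1 also without DMSO replicate 2 (0.068) or acalabrutinib replicate 1 (0.082).

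SQLE, squalene epoxidase, was lowered by copanlisib at 6 h in both lines and at 24 h in HBL1. At 6 h in HBL1 it had 247 and 302 CPM with NGI-1, 212 and 245 CPM with acalabrutinib, 204 and 217 CPM with copanlisib, and 265 and 281 CPM with DMSO, a copanlisib change of -0.37 ± 0.09 (adjusted p = 0.0039). That call was lost without DMSO replicate 2 (adjusted p = 0.059) or copanlisib replicate 1 (0.073). In TMD8 at 6 h it had 254 and 246 CPM with copanlisib, against 286 and 313 CPM with DMSO (log2 -0.26 ± 0.09, adjusted p = 0.041), a call lost without any 1 of the 4 libraries (0.06 to 0.26). At 24 h the HBL1 copanlisib libraries had 230 and 226 CPM, against 311 and 274 CPM with DMSO (-0.36 ± 0.09, adjusted p = 0.0017, lost without DMSO replicate 1 at 0.085), whereas in TMD8 the copanlisib libraries had 332 and 312 CPM, against 340 and 318 CPM with DMSO, and overlapped.

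The remaining sterol genes were called less often. SC4MOL, a sterol methyl oxidase, was higher with NGI-1 in HBL1 at 24 h, at 144 and 145 CPM, against 108 and 108 CPM with DMSO (0.42 ± 0.13, adjusted p = 0.018), and that call was lost without any 1 of the 4 libraries (0.057 to 0.11). FDFT1, squalene synthase, was lower with copanlisib at 24 h in TMD8 (-0.21 ± 0.08) and HBL1 (-0.25 ± 0.08), CYP51A1, the lanosterol demethylase, in HBL1 (-0.34 ± 0.12), and HSD17B7, a sterol ketoreductase, in HBL1 (-0.45 ± 0.15). Each of these 4 calls was lost without any 1 of its 4 libraries, with adjusted p up to 0.25, 0.1, 0.19 and 0.11. LSS, lanosterol synthase, and SC5DL, a sterol desaturase, were called in none of the 18 comparisons.

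Among the 9 genes of acetyl-CoA supply and fatty acid synthesis, FASN and ACLY fell at 24 h with every compound in both lines. The counts called lower at 24 h were 3 with NGI-1, 4 with acalabrutinib and 5 with copanlisib in TMD8, and 2, 4 and 5 in HBL1, beside the same shares of all genes (14.8%, 15.5% and 16%, and 11.4%, 11.4% and 17.7%). AACS rose with every compound in TMD8 and with NGI-1 in HBL1, ACSS2 with NGI-1 in TMD8 and copanlisib in HBL1, and FADS2 with NGI-1 in HBL1.

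FASN, fatty acid synthase, had 218 and 221 CPM with NGI-1, 217 and 201 CPM with acalabrutinib, 200 and 194 CPM with copanlisib, and 384 and 382 CPM with DMSO in TMD8 at 24 h. In HBL1 it had 383 and 353 CPM with NGI-1, 430 and 371 CPM with acalabrutinib, 340 and 315 CPM with copanlisib, and 629 and 526 CPM with DMSO. All 12 treated libraries were below both DMSO libraries of their line. The log2 change was -0.80 ± 0.11 (adjusted p = 3.5e-07), -0.87 ± 0.11 (adjusted p = 5.9e-08) and -0.96 ± 0.11 (adjusted p = 9.5e-09) in TMD8, and -0.65 ± 0.11 (adjusted p = 2.6e-05), -0.53 ± 0.11 (adjusted p = 0.00044) and -0.82 ± 0.11 (adjusted p = 2.2e-07) in HBL1. These 6 calls stayed without any 1 library.

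FASN was also the first member to be called. With copanlisib at 3 h in TMD8 it had 300 and 280 CPM, against 385 and 388 CPM with DMSO (-0.42 ± 0.11, adjusted p = 0.032), though this call was lost without any 1 of its 4 libraries (0.096 to 0.28). At 6 h in TMD8 it had 252 and 261 CPM with NGI-1, 306 and 299 CPM with acalabrutinib, 237 and 203 CPM with copanlisib, and 412 and 348 CPM with DMSO. It was called with NGI-1 (-0.57 ± 0.11, adjusted p = 0.00074, lost without DMSO replicate 1 at 0.082) and copanlisib (-0.79 ± 0.11, adjusted p = 1.4e-06), and not with acalabrutinib (-0.33 ± 0.11, adjusted p = 0.08). In HBL1 at 6 h it had 428 and 493 CPM with NGI-1, 449 and 492 CPM with acalabrutinib, 289 and 366 CPM with copanlisib, and 419 and 558 CPM with DMSO. Only copanlisib was called there (-0.58 ± 0.11, adjusted p = 0.00029), and the call was lost without DMSO replicate 2 (0.059).

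ACLY, which makes cytosolic acetyl-CoA from citrate, had 594 and 562 CPM with NGI-1, 593 and 501 CPM with acalabrutinib, 592 and 481 CPM with copanlisib, and 779 and 697 CPM with DMSO in TMD8 at 24 h. In HBL1 it had 645 and 602, 636 and 571, and 561 and 522 CPM, and 839 and 724 CPM with DMSO. Again every treated library was under both DMSO libraries. The log2 change was -0.35 (adjusted p = 0.00067), -0.43 (adjusted p = 4.3e-05) and -0.46 (adjusted p = 1.7e-05) in TMD8, and -0.33 (adjusted p = 0.0026), -0.37 (adjusted p = 0.00066) and -0.53 (adjusted p = 1.6e-06) in HBL1, each with an SE of 0.08. Without HBL1 DMSO replicate 1 the NGI-1 call (0.16) and the acalabrutinib call (0.076) were lost, the NGI-1 call also without NGI-1 replicate 2 (0.064).

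AACS, which activates acetoacetate, a ketone body, for lipid synthesis, was the most raised member. In TMD8 at 24 h it had 58.5 and 60.3 CPM with NGI-1, 57.9 and 48.2 CPM with acalabrutinib, 63.1 and 64.9 CPM with copanlisib, and 25 and 25.3 CPM with DMSO. The lowest treated library was thus well above both DMSO libraries. The log2 change was 1.24 ± 0.11 (adjusted p = 1.5e-12), 1.08 ± 0.11 (adjusted p = 5.2e-11) and 1.35 ± 0.11 (adjusted p = 6.9e-14). At 6 h it was called with copanlisib, at 24.8 and 25.1 CPM, against 15.2 and 16.6 CPM with DMSO (0.65 ± 0.12, adjusted p = 0.00013), and these 4 calls stayed without any 1 library.

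In HBL1, AACS stood at 86.9 and 77.8 CPM with NGI-1, 71.8 and 65 CPM with acalabrutinib, 71.8 and 68.4 CPM with copanlisib, and 62 and 60.6 CPM with DMSO at 24 h. Only NGI-1 was called (0.43 ± 0.10, adjusted p = 0.001, kept without any 1 library), and at 6 h NGI-1 as well (0.42 ± 0.10, adjusted p = 0.015, lost without DMSO replicate 1 at 0.18, DMSO replicate 2 at 0.1 or NGI-1 replicate 2 at 0.5). The difference between the lines (TMD8 minus HBL1) in the 24 h effect on AACS was 0.82 ± 0.14 for NGI-1 (adjusted p = 0.00022), 0.92 ± 0.14 for acalabrutinib (adjusted p = 2.7e-05) and 1.15 ± 0.14 for copanlisib (adjusted p = 2.7e-07). Among the 32 members AACS was the only one called in these tests at 24 h, where 2.57%, 4.19% and 4.22% of all genes were called, and each call stayed without any 1 of its 8 libraries. The same line difference called 0 members at 3 h and at 6 h with each compound by edgeR. By the same rule 0.0144%, 0% and 0.0576% of all genes were called at 3 h, and 0.0216%, 0.151% and 0.562% at 6 h, with NGI-1, acalabrutinib and copanlisib. At an unadjusted p under 0.05 the members counted 0, 1 and 3 of 32 at 3 h (all genes 3.91%, 2.83% and 4.32%) and 4, 1 and 5 at 6 h (all genes 6.35%, 5.85% and 6.4%). DESeq2 called 0 members at 3 h with each compound, and 0, 1 and 1 at 6 h.

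SCD, the desaturase that makes monounsaturated fatty acids, fell with copanlisib in both lines at 24 h. TMD8 had 1230 and 1080 CPM with NGI-1, 1030 and 861 CPM with acalabrutinib, 910 and 725 CPM with copanlisib, and 1180 and 986 CPM with DMSO. HBL1 had 1690 and 1400, 1330 and 1170, and 1110 and 935 CPM, and 1780 and 1450 CPM with DMSO. Replicate 1 was higher in each of these 8 groups, and only with acalabrutinib in HBL1 and with copanlisib in either line were both treated libraries under both DMSO libraries. The copanlisib change was -0.40 ± 0.10 for TMD8 (adjusted p = 0.0016) and -0.66 ± 0.10 for HBL1 (adjusted p = 2e-06), and that of acalabrutinib in HBL1 -0.37 ± 0.10 (adjusted p = 0.0066). The TMD8 call was lost without DMSO replicate 1 (0.1) or copanlisib replicate 2 (0.12), and the HBL1 acalabrutinib call without DMSO replicate 1 (0.28) or acalabrutinib replicate 2 (0.13).

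FADS1 and FADS2, desaturases of polyunsaturated fatty acids, differed from each other in HBL1. Their annotated genes overlap, and whether the counting used strand is not stated, so reads there could have been shared or dropped. At 24 h FADS2 had 617 and 526 CPM with NGI-1, 437 and 365 CPM with acalabrutinib, 388 and 327 CPM with copanlisib, and 418 and 354 CPM with DMSO, and it rose with NGI-1 only (0.57 ± 0.12, adjusted p = 0.00049), a call that stayed without any 1 library. FADS1 had 151 and 140 CPM with NGI-1, 110 and 102 CPM with acalabrutinib, 97.2 and 89.5 CPM with copanlisib, and 145 and 141 CPM with DMSO. It fell with acalabrutinib (-0.43 ± 0.09, adjusted p = 0.00051) and copanlisib (-0.61 ± 0.09, adjusted p = 9.4e-07), both kept, and its NGI-1 libraries overlapped those of DMSO. In TMD8, FADS2 was at 0.113 to 1.49 CPM in all 24 libraries, too few reads for a fold change, while FADS1 was called lower with acalabrutinib (-0.35) and copanlisib (-0.29), calls lost without DMSO replicate 1 (adjusted p = 0.24 and 0.4) or replicate 2 of the compound (0.24 and 0.36).

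ACACA, the carboxylase that makes malonyl-CoA, fell with copanlisib at 24 h in TMD8 (-0.53 ± 0.14, adjusted p = 0.0042) and HBL1 (-0.51 ± 0.15, adjusted p = 0.0085), calls lost without DMSO replicate 1 (0.062 and 0.2) or copanlisib replicate 2 (0.095 and 0.16). With acalabrutinib in TMD8 its call at -0.36 (adjusted p = 0.048) was lost without any 1 library (0.064 to 0.26). ELOVL6, a fatty acid elongase, was lower in TMD8 with NGI-1 at 24 h (-0.49 ± 0.15, adjusted p = 0.0098), not held without DMSO replicate 1 (0.3) or either NGI-1 library (0.057 and 0.054), and with copanlisib at 6 h (-0.58 ± 0.17, adjusted p = 0.014), lost without DMSO replicate 1 (0.18) or either copanlisib library (0.098 and 0.074). ACSS2, which makes acetyl-CoA from acetate, was higher with NGI-1 in TMD8 at 24 h, at 29.4 and 28.2 CPM, against 21.8 and 23.6 CPM with DMSO (0.34 ± 0.12, adjusted p = 0.03, lost without any 1 library at 0.064 to 0.19). In HBL1 it was higher with copanlisib at 6 h, at 12.7 and 15.2 CPM, against 9.15 and 9.78 CPM with DMSO (0.56 ± 0.15, adjusted p = 0.0082), lost without DMSO replicate 1 (0.11) or copanlisib replicate 2 (0.2). It was called at 0.47 ± 0.15 with acalabrutinib at 6 h in HBL1 (adjusted p = 0.04993) and at 0.35 ± 0.14 with copanlisib at 24 h (adjusted p = 0.046), and both calls were lost without any 1 of their libraries (0.11 to 0.33 and 0.053 to 0.32).

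Compared directly at 24 h, the members called between NGI-1 and a kinase inhibitor were all higher with NGI-1. Acalabrutinib and copanlisib were not told apart in the fits without a replicate block, a term for replicate number. In TMD8, all genes called were mostly higher with NGI-1 too, 152 against 28 lower over acalabrutinib and 148 against 40 over copanlisib. In HBL1 all genes called were more evenly split, 223 higher and 228 lower over acalabrutinib, and 369 and 316 over copanlisib. In TMD8, 1 member was called between NGI-1 and acalabrutinib (1.3% of all genes), DHCR7 at 0.38 ± 0.10, and 5 between NGI-1 and copanlisib (1.35% of all genes), SREBF1 at 0.56, SCD at 0.50, DHCR7 at 0.44, EBP at 0.43 and NSDHL at 0.40. In HBL1, 4 were called between NGI-1 and acalabrutinib (3.25% of all genes), FADS2 at 0.51, INSIG1 at 0.48, FADS1 at 0.46 and EBP at 0.43. Between NGI-1 and copanlisib in HBL1, 10 were called (4.93% of all genes), with FADS2 at 0.68, INSIG1 at 0.65, FADS1 at 0.64, STARD4 at 0.62, EBP and SCD at 0.59, SC4MOL at 0.55, DHCR7 at 0.45, NSDHL at 0.41 and FDPS at 0.31. The HBL1 calls against copanlisib for EBP (adjusted p = 5e-05), SCD (adjusted p = 9.8e-05), FADS1 (adjusted p = 3.2e-06) and FADS2 (adjusted p = 0.00019) stayed without any 1 of their 4 libraries.

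The other 16 direct calls were lost when some library was left out. In TMD8 the 6 calls were lost without NGI-1 replicate 1, at adjusted p from 0.15 to 0.34, and 5 of them without replicate 2 of the kinase inhibitor, at 0.16 to 0.68. EBP was lost without copanlisib replicate 1 (0.17), and DHCR7 against either inhibitor (0.19 and 0.077) and NSDHL (0.13) also without NGI-1 replicate 2. In HBL1 the 4 calls against acalabrutinib were lost without NGI-1 replicate 1 (0.056 to 0.4), and the 6 other calls against copanlisib likewise (0.07 to 0.3). Against acalabrutinib, EBP (0.2) and INSIG1 (0.14) were also lost without acalabrutinib replicate 1, INSIG1 (0.18), FADS1 (0.054) and FADS2 (0.2) without its replicate 2, and EBP without NGI-1 replicate 2 (0.061). Against copanlisib, FDPS (0.067), SC4MOL (0.12) and NSDHL (0.084) were also lost without copanlisib replicate 1, NSDHL (0.16), DHCR7 (0.1) and STARD4 (0.24) without its replicate 2, and SC4MOL (0.056) and STARD4 (0.085) without NGI-1 replicate 2.

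Copanlisib over acalabrutinib gave 0 called members by edgeR and by DESeq2 in both lines, where edgeR called 0.461% and 0.101% of all genes. These fits had no replicate block. With such a block edgeR called 1 member in each line, and with a block within line and time 3 in TMD8 and 6 in HBL1. No share of all genes is given for the blocked fits. At an unadjusted p under 0.05 there were 5 members in TMD8 (15.6%, against 7.02% of all genes) and 4 in HBL1 (12.5%, against 7.3%). A missed threshold does not show equal action: the 95% interval of the copanlisib minus acalabrutinib difference ran from -0.51 to -0.07 for FASN in HBL1 and from -0.31 to 0.14 in TMD8. The median of the 32 differences was -0.08 in TMD8, where 25 of 32 were below 0, and -0.15 in HBL1, where 27 of 32 were. Of all 13881 genes, 6802 were below 0 in TMD8 and 7066 in HBL1. The doses differ (NGI-1 5 µM, acalabrutinib 50 nM, copanlisib 20 nM), so that these values compare the treatments as given.

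**Figure D5:**
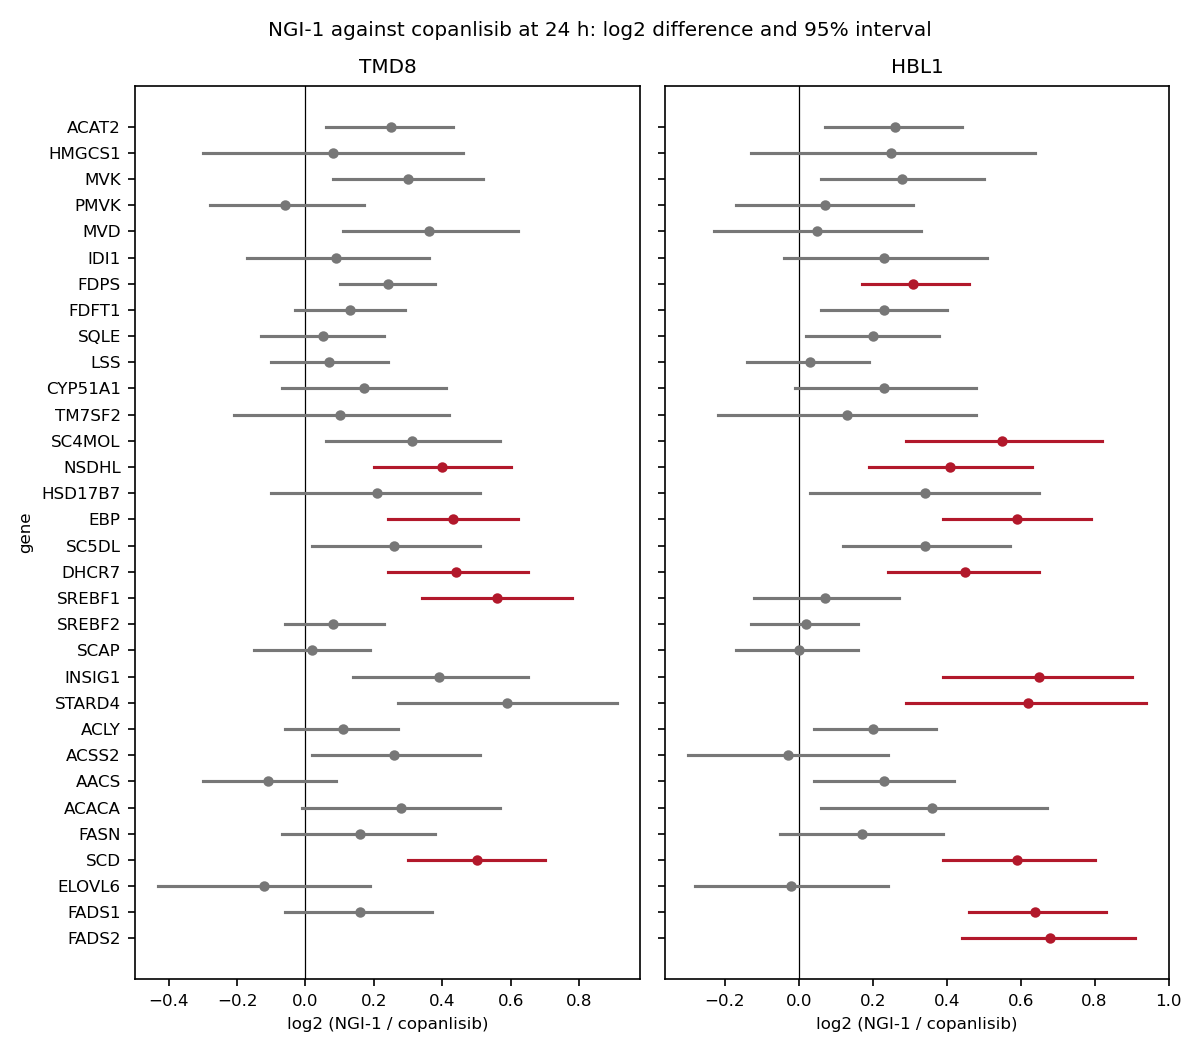
Log2 difference of NGI-1 minus copanlisib at 24 h (x axis, points) with its 95% interval (lines) for each member in TMD8 and HBL1; red points have an adjusted p under 0.05, and FADS2 is not drawn in TMD8. All red points, 5 in TMD8 and 10 in HBL1, lie on the side higher with NGI-1.

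The members also changed with time under DMSO alone, where time and handling cannot be told apart. At 24 h against 3 h, 9 members were lower and 4 higher in TMD8 (40.6% called, against 32.8% of all genes), and 11 lower and 6 higher in HBL1 (53.1%, against 39.7%). INSIG1 in TMD8 with DMSO had 552 and 453 CPM at 3 h, 408 and 374 CPM at 6 h, and 310 and 254 CPM at 24 h, and in HBL1 519 and 506, 241 and 265, and 342 and 327 CPM at these times. HMGCS1 under DMSO had 1020 and 813 CPM at 3 h, 501 and 520 CPM at 6 h, and 611 and 497 CPM at 24 h in TMD8. Between 24 and 3 h, INSIG1 changed by -0.83 ± 0.12 in TMD8 and -0.62 ± 0.12 in HBL1 (log2, adjusted p = 3.2e-06 and 0.00013), SREBF2 by -0.45 ± 0.07 and -0.49 ± 0.07, and SQLE by -0.49 ± 0.09 in each line. ELOVL6 rose by 0.99 ± 0.16 and 1.12 ± 0.13, FADS1 by 0.82 ± 0.11 and 0.99 ± 0.09, and PMVK by 0.52 ± 0.11 and 0.60 ± 0.12. These 12 calls stayed without any 1 library, while those of HMGCS1 (-0.72 in TMD8, -0.86 in HBL1) stayed in HBL1 and were lost in TMD8 without DMSO 3 h replicate 1 (adjusted p = 0.083) or DMSO 24 h replicate 2 (0.076).

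Under DMSO over the 3 times, 27 of the 32 members differed between the lines (84.4%), which is near the 78.5% of all genes that did. Of these, 17 were higher and 10 lower in TMD8 than in HBL1, beside 5453 and 5447 of all genes. FDFT1 was higher in TMD8 by 1.60 ± 0.05 (log2), SC4MOL by 0.91 ± 0.07, MVD by 0.90 ± 0.07 and NSDHL by 0.83 ± 0.06. The largest difference was that of FADS2, lower in TMD8 at -9.18, a size left uncertain by its very few reads there. Also lower in TMD8 were FADS1 (-1.71 ± 0.06), AACS (-1.53 ± 0.06), SREBF1 (-1.43 ± 0.06), ELOVL6 (-1.08 ± 0.08), LSS (-1.01 ± 0.05) and SC5DL (-0.88 ± 0.07). By role, the 7 mevalonate genes were all higher in TMD8. Of the 9 genes of acetyl-CoA supply and fatty acid synthesis, 6 were lower and 2 higher. These are small counts within a called share that is near that of all genes. AACS, which rose in TMD8 with every compound, thus started from the lower level there, at 25 and 25.3 CPM at 24 h, against 62 and 60.6 CPM in HBL1.

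Genes around the pathway were read from lists outside the 32. At 24 h, all genes called higher were 15.6%, 15.3% and 15.6% with NGI-1, acalabrutinib and copanlisib in TMD8, and 7.87%, 7.53% and 12.5% in HBL1, and those called lower 14.8%, 15.5% and 16%, and 11.4%, 11.4% and 17.7%. Of the 12 genes of SREBP processing and turnover, 3 were higher and 3 lower with NGI-1, 3 and 2 with acalabrutinib, and 4 and 3 with copanlisib in TMD8 at 24 h, with list medians of 0.07, -0.05 and -0.04 (log2). The higher ones included C12orf49 (SPRING1), a partner of the site-1 protease, at 0.84 ± 0.11, 1.19 ± 0.11 and 1.13 ± 0.11, and MBTPS1, the site-1 protease itself, at 0.50, 0.88 and 0.83, while ERLIN2, which takes part in the breakdown of sterol synthesis proteins, was lower (-0.54, -0.61 and -0.47). In HBL1 none of the 12 was called with NGI-1 at 24 h by edgeR, with 2 at an unadjusted p under 0.05 (31% of all genes). With acalabrutinib and copanlisib there, 1 was higher, MBTPS1 (0.37 and 0.47), and 2 were lower, ERLIN1 (-0.39 and -0.46) and VCP (-0.24 and -0.41).

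Of the 17 genes of sterol transport, uptake and storage, 3 were higher and 5 lower with NGI-1 in TMD8 at 24 h, 2 and 7 with acalabrutinib, and 2 and 7 with copanlisib, and in HBL1 2 and 4, 2 and 4, and 2 and 5. The shares of all genes called higher at 24 h were 15.3% to 15.6% in TMD8 and 7.53% to 12.5% in HBL1, and of those called lower 14.8% to 16% and 11.4% to 17.7%. NPC2, the lysosomal sterol carrier, rose in TMD8 by 0.88, 0.95 and 0.79, and GRAMD1B, which draws sterol out of the plasma membrane, was lower in HBL1 (-1.29, -1.18 and -1.30). VLDLR, a lipoprotein receptor, was higher with NGI-1 in TMD8 at 3 h (1.57 ± 0.24, adjusted p = 3.3e-05) and 6 h (1.32 ± 0.24, adjusted p = 0.00027). Of 8 tested LXR targets and efflux genes, 1, 1 and 0 were higher and none lower with NGI-1, acalabrutinib and copanlisib in TMD8 at 24 h, and 1, 1 and 1 were higher and 0, 0 and 1 lower in HBL1. The gene in TMD8 was ABCA1, a sterol exporter (1.34 ± 0.27 with NGI-1, 1.22 ± 0.27 with acalabrutinib). Those in HBL1 were NR1H3, which encodes an LXR, with NGI-1 (1.74 ± 0.49), ABCG1, another exporter, with acalabrutinib (0.97 ± 0.16) and copanlisib (0.72 ± 0.17), and LPCAT3, a phospholipid acyltransferase, lower with copanlisib (-0.25 ± 0.09).

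Of 21 tested genes of fatty acid synthesis, elongation and activation outside the 32, 4 were higher and 6 lower with NGI-1, 2 and 6 with acalabrutinib, and 2 and 6 with copanlisib in TMD8 at 24 h, and 0 and 4, 2 and 4, and 1 and 10 in HBL1. All genes called were 15.3% to 15.6% higher and 14.8% to 16% lower in TMD8, and 7.53% to 12.5% higher and 11.4% to 17.7% lower in HBL1, which hold for the fatty acid oxidation genes as well. FABP5, a fatty acid carrier, was lower in all 6, by -1.10, -1.19 and -1.23 in TMD8 and -0.55, -0.49 and -0.73 in HBL1. SLC25A1, the mitochondrial citrate carrier, was lower in TMD8 (-0.51, -0.54 and -0.64). Of 20 tested fatty acid oxidation genes, 5, 6 and 5 were higher in TMD8 at 24 h with NGI-1, acalabrutinib and copanlisib, and 4, 4 and 6 in HBL1, with 3, 3 and 4 lower in TMD8 and 0, 0 and 2 in HBL1. ACADM, the medium-chain acyl-CoA dehydrogenase, was higher in all 6 (0.55, 0.54 and 0.38 in TMD8, 0.52, 0.76 and 0.57 in HBL1), as was DECR1, a reductase of unsaturated fatty acyl-CoA (0.37, 0.52 and 0.35, and 0.72, 0.42 and 0.71).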

How the data were processed

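RNA from 48 libraries was sequenced, per the labels' protocols, on an Illumina platform after total RNA extraction. The authors deposited a table of raw read counts per gene, whole numbers with no normalization. HTSeq and the hg19 build are named in the submitters' processing notes. The aligner, tool versions, annotation and strand setting are not given in the sources used here. Of the genes in the deposited table, 3449 are named by symbol with no gene ID, and these held 0.81% of the reads and were kept.

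From these counts, genes with enough reads were selected (edgeR 4.0.16, R 4.3.3, filterByExpr by group), scaled by TMM and fitted with edgeR's quasi-likelihood model (robust) to the means of 24 groups, with 24 residual degrees of freedom. P-values were adjusted by Benjamini-Hochberg within each of 42 comparisons over 13881 genes, with a threshold of 0.05. Libraries held 7165377 to 11999050 counts, so depth gives a precision set mainly by the spread between duplicates. All pairs of libraries differed by more than sampling noise (chi-square per degree of freedom at least 2.53 over 1128 pairs). Alternatives were RLE size factors, other filters, DESeq2 1.42.0, separate fits of each line, replicate blocks and leaving out each library.

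The members and the lists around them were chosen with earlier results of these data known. All 32 members are reported by role. Values per library are given for INSIG1, SREBF1, SREBF2, SCAP, HMGCS1, SQLE, FASN and SCD, and for the 3 higher and 3 lower members with the smallest adjusted p in each comparison with DMSO. From each other list, up to 3 called genes per comparison with the smallest adjusted p could be named. The results of the prenyl branch and late sterol list are not reported here. Motifs were searched on both strands of 300-base promoter windows from RefSeq.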

Additional observations from a re-analysis of the deposited data

Results flagged for a closer look

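The effect of a compound differed between the lines, or between 24 h and 3 h, for the members below, by a test of the difference itself (edgeR's quasi-likelihood test, adjusted p under 0.05). For AACS the effect at 24 h was larger in TMD8 than in HBL1 by 0.82 with NGI-1, 0.92 with acalabrutinib and 1.15 with copanlisib (log2), and these held without any 1 library.

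The other differences are those of the 24 h effect minus the 3 h effect, on the log2 scale. In TMD8 with NGI-1 this was 1.06 for AACS, -0.55 for ACAT2, -0.74 for FASN, -0.35 for ACLY and -0.30 for FDPS, where 12% of all genes differed. The ACLY and FDPS differences were each lost without any 1 of 6 of the 8 libraries (adjusted p up to 0.21 and 0.22). In TMD8 with acalabrutinib it was 0.92 for AACS, -0.91 for FASN, -0.59 for MVK, -0.55 for DHCR7, -0.51 for ACAT2, -0.50 for MVD, -0.45 for ACLY and -0.38 for FDPS, where 14.4% of all genes differed. Of these, AACS, FASN and MVK held without any 1 library. In TMD8 with copanlisib it was 1.20 for AACS, 0.76 for TM7SF2, -0.71 for ACAT2, -0.56 for SREBF1, -0.54 for FASN, -0.49 for FADS1, -0.47 for FDPS and -0.39 for ACLY, where 10.9% of all genes differed, and AACS, ACAT2 and FDPS held without any 1 library.

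In HBL1 with acalabrutinib the difference was -0.68 for EBP, -0.45 for FADS1 and -0.42 for FDPS, where 3.96% of all genes differed, and EBP held without any 1 library. In HBL1 with copanlisib it was -0.75 for EBP, -0.72 for FADS1, -0.65 for SCD, -0.57 for NSDHL, -0.52 for PMVK, -0.50 for FASN, -0.49 for DHCR7, -0.48 for FDPS, -0.46 for ACLY and -0.46 for MVK, where 9.31% of all genes differed. EBP, FADS1, SCD and FDPS held without any 1 library. The 3 h and 24 h effects each rest on their own DMSO libraries, and time and handling cannot be told apart.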

How the results depend on the processing

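No member changed direction past the threshold under any alternative run. The counts of members called that moved by more than 1.5 times are given here, each against the count reported, and the cause was not tested. The share of all genes called in the same run is not set beside these counts or those below. They therefore do not show whether the members exceeded that share. With RLE size factors, HBL1 acalabrutinib at 6 h had 1 against 2, the line difference of copanlisib at 24 h 2 against 1, and the HBL1 NGI-1 effect at 24 h minus 3 h 1 against 0. With no filter on low counts, TMD8 had 2 against 0 for NGI-1 at 3 h, 3 against 1 for NGI-1 at 6 h, acalabrutinib at 6 h and copanlisib at 3 h, and 4 against 1 for NGI-1 over acalabrutinib. HBL1 had 2 against 0 for NGI-1 at 3 h, 1 against 0 for copanlisib at 3 h and for NGI-1 at 24 h minus 3 h, and 7 against 4 for NGI-1 over acalabrutinib. The line differences had 1 against 0 for acalabrutinib and copanlisib at 6 h, and 2 against 1 for acalabrutinib at 24 h. With the stricter filter, acalabrutinib at 6 h and copanlisib at 3 h in TMD8 and the line difference of NGI-1 at 24 h had 2 against 1, that of copanlisib 1 against 0 at 6 h and 3 against 1 at 24 h, and NGI-1 in HBL1 at 24 h minus 3 h 1 against 0. With a separate fit of each line, TMD8 had 1 against 0 for NGI-1 at 3 h, 3 against 1 for NGI-1 at 6 h, and 2 against 1 for acalabrutinib at 6 h and NGI-1 over acalabrutinib. HBL1 had 1 against 2 for NGI-1 and acalabrutinib at 6 h, 1 against 0 for NGI-1 and 6 against 10 for copanlisib at 24 h minus 3 h. DESeq2 gave 2 against 1 for NGI-1 at 6 h, copanlisib at 3 h and NGI-1 over acalabrutinib in TMD8 and for the line difference of copanlisib at 24 h, 7 against 4 for NGI-1 over acalabrutinib in HBL1, and 1 against 0 for the line differences of acalabrutinib and copanlisib at 6 h and NGI-1 in HBL1 at 24 h minus 3 h.

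Leaving out 1 library in turn gave these ranges of called members. In TMD8 they were 0 to 1 for NGI-1 at 6 h, 1 to 2 for acalabrutinib at 6 h, and 0 to 1, 3 to 7 and 12 to 17 for copanlisib at 3, 6 and 24 h. In HBL1 they were 0 to 2 and 3 to 7 for NGI-1 at 6 and 24 h, 0 to 2 and 4 to 12 for acalabrutinib, and 1 to 5 and 9 to 17 for copanlisib. Between compounds they were 0 to 1 for NGI-1 over acalabrutinib and 0 to 4 for NGI-1 over copanlisib in TMD8, and 0 to 4 and 4 to 8 in HBL1. The line difference of copanlisib at 24 h had 1 to 2. For the effect at 24 h minus 3 h they were 3 to 5, 5 to 10 and 3 to 11 for NGI-1, acalabrutinib and copanlisib in TMD8, and 0 to 1, 1 to 5 and 4 to 10 in HBL1.

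The replicate numbers are shared between groups, but no label ties them to a culture or day. With 2 pairs per comparison, the correlation of same-numbered deviations was above 0 in all 18. It was 0.05 to 0.18 in TMD8 and 0.12 to 0.24 in HBL1. The members' share of reads moved with the replicate number at most times. Replicate 1 had the higher share in every group of TMD8 at 3 and 24 h and of HBL1 at 24 h. Replicate 2 had it in every group of HBL1 at 3 and 6 h, and TMD8 at 6 h was mixed. The fits reported have no block, so this shared shift is part of their spread, and leaving out 1 library unbalances it. Of 690 results for single members, the block within line and time brought 98 past the threshold and took 0 back over it, and the plain block 24 and 1. Comparisons other than those with DMSO entered the 690 only where a member was already called. All results brought past the threshold therefore come from the comparisons with DMSO. With a replicate block, TMD8 had 1 against 0 for NGI-1 at 3 h, 4 against 1 for NGI-1 at 6 h, 2 against 1 for copanlisib at 3 h, 3 against 1 for NGI-1 over acalabrutinib and 1 against 0 for copanlisib over acalabrutinib. HBL1 had 8 against 4 for NGI-1 over acalabrutinib, 1 against 0 for copanlisib over acalabrutinib, and, at 24 h minus 3 h, 1 against 0 for NGI-1 and 8 against 3 for acalabrutinib. The line differences had 2 against 1 for NGI-1 at 24 h, and 1 against 0 and 3 against 1 for copanlisib at 6 and 24 h. With a replicate block within line and time, more members were called, again with no share of all genes from the same fit to compare. TMD8 had 3, 9 and 18 for NGI-1 at 3, 6 and 24 h, 1 and 5 for acalabrutinib at 3 and 6 h, and 7 for copanlisib at 3 h. HBL1 had 4, 10 and 12 for NGI-1, 11 and 18 for acalabrutinib at 6 and 24 h, and 6 and 13 for copanlisib at 3 and 6 h. Between compounds that block gave 7 for NGI-1 over acalabrutinib, 14 over copanlisib and 3 for copanlisib over acalabrutinib in TMD8, and 11, 23 and 6 in HBL1. The line differences had 2 and 3 for NGI-1, 2 and 5 for acalabrutinib and 2 and 7 for copanlisib at 6 and 24 h. At 24 h minus 3 h it gave 13, 17 and 17 in TMD8, and 9 and 10 for NGI-1 and acalabrutinib in HBL1. Duplicates and 7165377 to 11999050 reads per library limit what small differences can be called.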
